A study of Mus musculus with 6 samples.

Results

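The genes described here encode the eukaryotic translation initiation factors and the proteins that carry their names, measured by RNA sequencing in a mouse liver cell line kept on a random positioning machine or at normal gravity. They were chosen as the protein-coding genes of the deposited count table whose symbol starts with Eif, which gave 55 of the 53800 genes in the table. The rule itself used no measured value, but the family was chosen with earlier results of these data known. A further 9 genes with Eif symbols, 8 processed pseudogenes and 1 long intergenic RNA, are not protein coding and were left out. The cells were NCTC 1469, a line derived from normal mouse liver, labelled as wild type and as hepatocytes. The simulated microgravity group was 3 libraries of cells grown for 6 days on a random positioning machine, which turns a culture continuously so that the direction of gravity averages out over time. The normal gravity group was 3 libraries of the same line over the same time without it. All cells came from 1 line, and nothing in the labels says whether the 3 libraries of a group came from separate cultures, so the p-values measure the spread between these libraries, which may be technical.

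Translation initiation brings a ribosome to the start codon of an mRNA. The small ribosomal subunit binds eIF1, eIF1A, eIF3, eIF5 and a complex of eIF2, GTP and the initiator tRNA, and eIF4F, made of the cap-binding protein eIF4E, the scaffold eIF4G and the helicase eIF4A, brings that assembly to the mRNA cap. The process is mainly controlled at 2 points: kinases that phosphorylate eIF2 block its reloading by the exchange factor eIF2B, and the 4E-binding proteins, which the TOR kinase phosphorylates, keep eIF4E from eIF4G. Transcript levels are what was measured here, and neither phosphorylation nor the rate of translation was.

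Total counts were between 30474792 and 34318208 in the simulated microgravity libraries and between 31406875 and 32797684 in the normal gravity libraries. Of 12 hepatocyte markers, 9 had no count in any library, among them Alb, Apob and Hnf4a, and only Trf reached 1 CPM, the count scaled to a common library size, in all 6, so the labelled cell type was not borne out and the cells are called by their line name. Macrophage markers were abundant, with 11 of 12 at 1 CPM or more in all 6 libraries, and their summed level was 10609 to 11898 CPM in simulated microgravity against 6621 to 10738 CPM in normal gravity. The other marker sums were 25.6 to 32.9 CPM against 43.5 to 54.0 CPM for hepatocytes, 69.0 to 73.0 CPM against 41.9 to 62.7 CPM for fibroblasts and stellate cells, and 45.5 to 58.3 CPM against 19.4 to 20.03 CPM for endothelial cells, while no bile duct marker reached 1 CPM. A few genes carried much of these sums, and not all other markers followed them. Vwf had 42.1 to 55.7 CPM in simulated microgravity against 15.1 to 17.99 CPM. Pecam1 overlapped, with 1.19 to 2.36 CPM against 1.53 to 3.98 CPM. Trf made up nearly all of the hepatocyte sum and Pdgfra most of the fibroblast sum. Marco, a macrophage marker, had 629 to 705 CPM against 52.9 to 222 CPM. Adgre1, another, had 779 to 837 CPM against 815 to 965 CPM. The sums therefore do not measure the amount of a cell type. The part of these marker differences in the results below was not tested. In a bulk sample, fewer cells of a type and less RNA per cell cannot be told apart.

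Normal gravity replicate 1 stood apart from all other libraries. Across genes, its log2 levels correlated with those of the other normal gravity libraries at r = 0.94 each, against r = 0.99 between normal gravity replicates 2 and 3 and r = 0.98 within the simulated microgravity group (across genes, which are not independent replicates). Its deviation followed gene length in part. That length is the one the table lists in bases, without saying what it spans. Among the Eif genes, all 12 of up to 2000 bases were higher in it than in normal gravity replicates 2 and 3, with a median log2 difference of 0.67, while 12 of the 16 longer than 4000 bases were lower in it, with a median of -0.56. The medians over all tested genes in the same length classes were 0.52 and -0.51. The short genes Eif4ebp1 and Eif1 were 1.28 and 1.13 higher on the log2 scale in replicate 1 than in replicates 2 and 3, and the long genes Eif5 and Eif4g1 were at -2.31 and -1.11. The Eif results are therefore given with all 6 libraries and without normal gravity replicate 1, and where it changes the call also with the gene-length trend removed from each library. Replicate 1 also differed in macrophage markers, and their sum there, 10738 CPM, was the highest of the normal gravity libraries. Lyz2 had 3928 CPM in it, against 969 and 1022 CPM in replicates 2 and 3. Marco had 222 CPM, against 56.1 and 52.9 CPM. Of the 12 macrophage markers, Csf1r, Ptprc and Itgam were lower in it than in both, and the rest were higher. A cause for these differences was not tested.

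**Figure D1:**
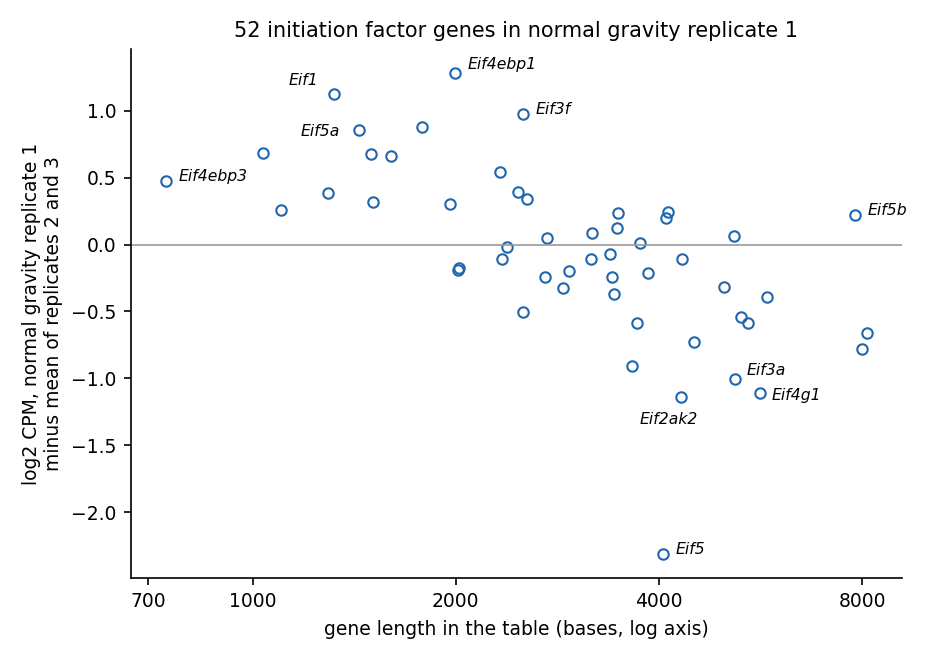
Each point is 1 of the 52 Eif genes with counts, with its gene length in bases on the x axis (log scale) and, on the y axis, the log2 level in normal gravity replicate 1 minus the mean of replicates 2 and 3. All 12 genes of up to 2000 bases lie above 0, and 12 of the 16 genes over 4000 bases lie below it.

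Of the 55 Eif genes, 52 had enough counts to be tested. The other 3 had no count in any library: Eif2s3y, the Y-linked copy of an eIF2 subunit, Eif4e1b, an eIF4E relative of oocytes, and Eif5a2, a second eIF5A gene. With 194666094 counts over the 6 libraries, a count of 0 allows up to 0.0154 CPM, for counting error only. Per kilobase of gene length, the highest mean level was that of Eif5a, with 578 CPM per kilobase in simulated microgravity and 773 CPM per kilobase in normal gravity. Eif4a1 came next, with 231 and 253 CPM per kilobase. At the low end stood the kinase gene Eif2ak4, with 7.85 CPM per kilobase in simulated microgravity and 6.79 in normal gravity, and Eif4ebp3, with 1.37 and 0.206.

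Together the Eif genes took a smaller share of the library after simulated microgravity. They held 0.990%, 1.00% and 0.975% of all counts in the 3 simulated microgravity libraries, against 1.09%, 1.17% and 1.16% in the normal gravity libraries, with 1.09% in replicate 1. The groups did not overlap in that share, which averaged 0.989% ± 0.0138 and 1.14% ± 0.0451 (SD, n = 3 each). Gene by gene, 41 of the 52 had a log2 fold change, simulated microgravity over normal gravity, below 0, where 52.3% of all tested genes did. The median was -0.17, against -0.02 over all 14509 genes tested. It was -0.18 with DESeq2's size factors and -0.21 with library size alone, so its direction held under each scaling.

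No Eif gene passed an adjusted p of 0.05 in either direction with all 6 libraries (edgeR's quasi-likelihood test, p adjusted by Benjamini-Hochberg across the whole table), where 1.16% of all genes were called higher and 0.365% lower. Before adjustment, 2 Eif genes were above and 4 below with a p under 0.05, where 8.55% and 7.48% of all genes were. The limma-voom test also called none, while DESeq2 called 2 higher (Eif4e3 and Eif4ebp3) and 3 lower (Eif1ax, Eif2b3 and Eif4h), where it called 4.92% and 3.56% of all genes. Without regard to a test, 5 Eif genes had simulated microgravity levels that all lay above those of normal gravity and 18 had levels that all lay below, which is 34.6% of the 52 and compares with 14.4% higher and 12.9% lower over all genes. Without normal gravity replicate 1 the same counts were 9 higher and 33 lower, against 29.3% of all genes in each direction.

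Without normal gravity replicate 1, 6 Eif genes passed as higher and 21 as lower. Those are 11.5% and 40.4% of the 52, where 15.7% of all genes were called higher and 15.1% lower. With library size as the only scaling the split was 3 higher and 28 lower, where 12.9% and 19.3% of all genes were called. With the gene-length trend removed as well as replicate 1 it was 3 higher and 28 lower, where 14.0% and 17.2% of all genes were called, and 24 of the 27 genes called before were called again, all in the same direction. Of the 27, 26 had the same direction in the fit of all 6 libraries, Eif4ebp1 being the exception. The Eif log2 fold changes still followed gene length without replicate 1, at Spearman's rho = -0.44, against -0.14 over all tested genes. With all 6 libraries rho was 0.17 and 0.19, and with the trend removed as well as replicate 1 it was -0.16 and 0.02. Of the genes called higher, Eif1, Eif2b2, Eif4ebp1 and Eif4ebp3 were under 2000 bases long, and Eif4a2 and Eif4e3 were longer. With the length trend removed and all 6 libraries kept, 2 Eif genes passed, Eif2b3 and Eif4g2, both lower, where 2.61% of all genes were called higher and 2.37% lower. Leaving out any of the other 5 libraries gave 0 Eif calls in both directions, in fits that called between 3 and 24 genes of the whole table.

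**Figure D2:**
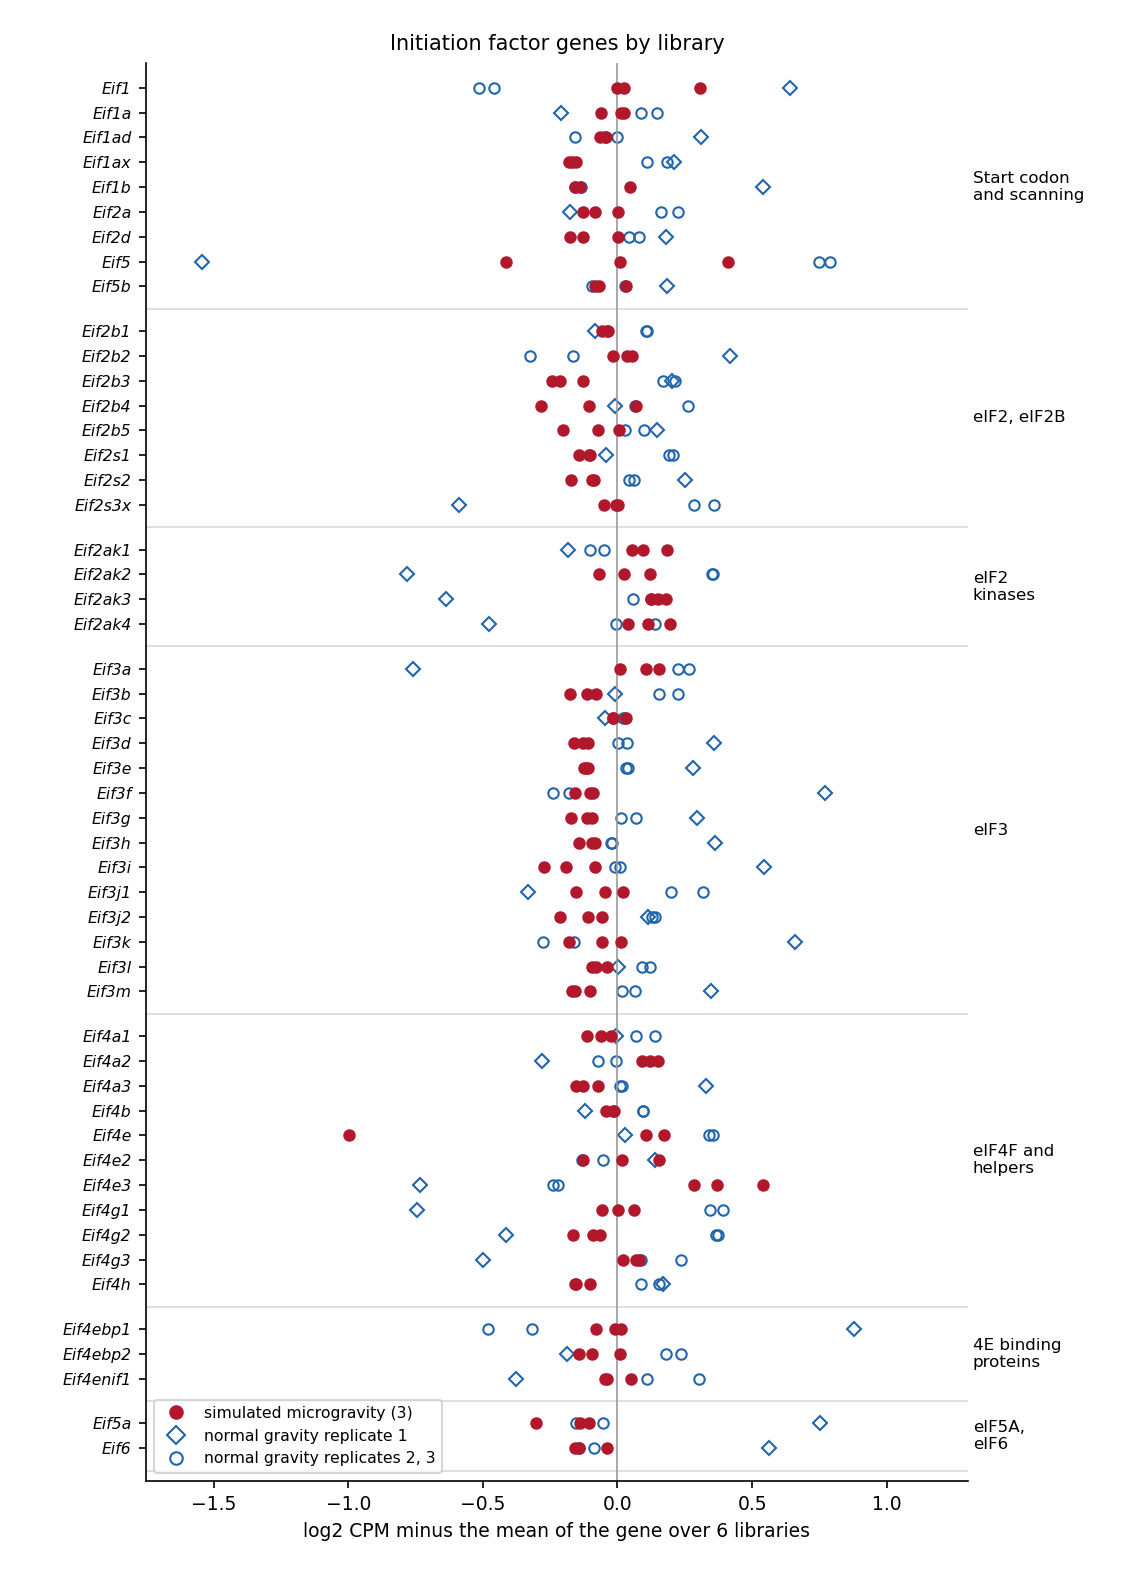
Log2 level of 51 of the 52 Eif genes with counts in each of the 6 libraries, minus the gene's mean over the 6 libraries, grouped by role, with filled circles for simulated microgravity, open circles for normal gravity replicates 2 and 3 and diamonds for normal gravity replicate 1. Eif4ebp3, the gene with the fewest counts, is not drawn. Simulated microgravity libraries lie below 0 for most eIF3 genes, and normal gravity replicate 1 lies above or below the rest in most genes.

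**Figure D3:**
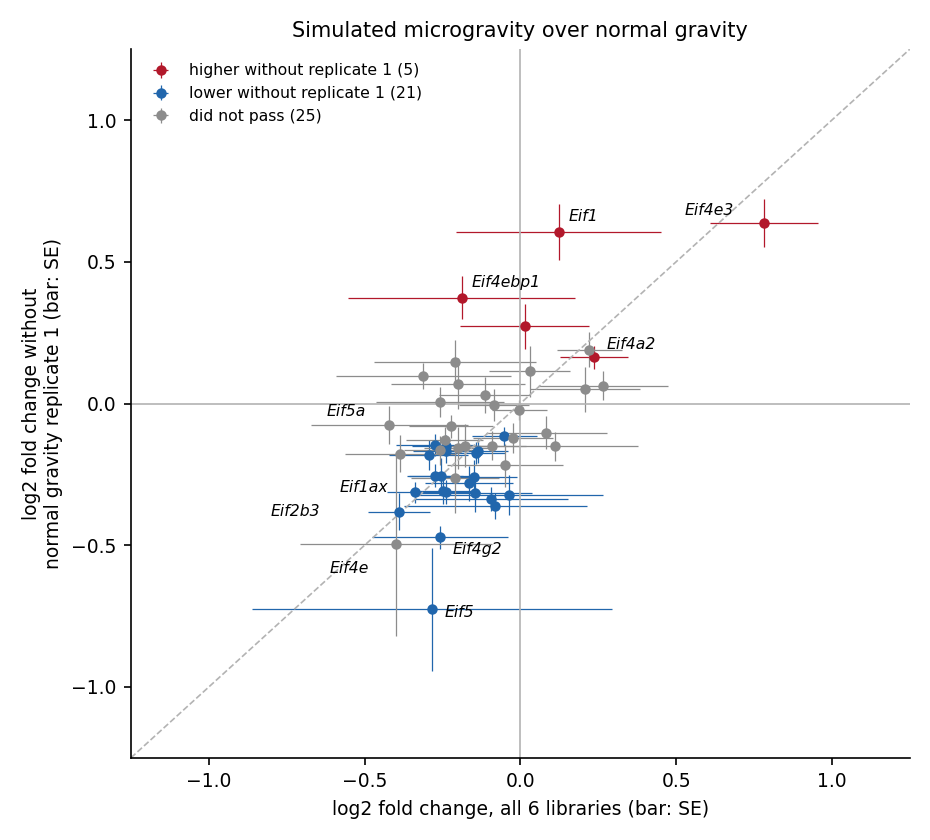
Log2 fold change of simulated microgravity over normal gravity with all 6 libraries (x axis) and without normal gravity replicate 1 (y axis), with bars for standard errors. Of the 51 genes drawn, 5 were called higher and 21 lower without replicate 1 and 25 did not pass, Eif4ebp3 not being drawn, and none passed with all 6 libraries.

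In the group of scanning and start codon choice, no gene passed with all libraries. Without normal gravity replicate 1, Eif1 rose and Eif1ax, Eif2a and Eif5 fell, which is 1 of the 9 genes higher and 3 lower, where 15.7% and 15.1% of all genes were called. Their median log2 fold change with all libraries was -0.15. Eif1ax, the X-linked gene of eIF1A, which with eIF1 keeps the ribosome open for scanning, had 339, 343 and 337 CPM in simulated microgravity, against 442, 412 and 434 CPM in normal gravity. The groups were far apart and replicate 1 lay with the other normal gravity libraries. The change on the log2 scale (± SE here and below) was -0.34 ± 0.09 (adjusted p = 0.137) with all libraries and -0.31 ± 0.04 (adjusted p = 0.00262) without replicate 1. Eif1a, a second eIF1A gene, had 92.0 to 97.8 CPM against 83.1 to 106 CPM. It did not pass in either fit and was called lower with the length trend removed as well as replicate 1 (-0.20, adjusted p = 0.0368).

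Eif1, whose protein guards against starts at wrong codons, had 217, 221 and 269 CPM in simulated microgravity, against 339, 158 and 152 CPM in normal gravity. All simulated microgravity libraries were above normal gravity replicates 2 and 3 and below replicate 1. Its log2 fold change was 0.12 ± 0.33 (adjusted p = 0.906) with all libraries and 0.61 ± 0.10 (adjusted p = 0.00724) without replicate 1. Eif5, which makes eIF2 hydrolyse its GTP and whose excess protein loosens start codon choice, had 112, 84.5 and 63.1 CPM, against 28.8, 145 and 141 CPM. Here replicate 1 was the lowest of all 6, while the other 2 normal gravity libraries were the highest, and the simulated microgravity libraries differed widely among themselves. Eif5 was at -0.28 ± 0.58 (adjusted p = 0.868) with all libraries and fell by 0.73 ± 0.22 on the log2 scale (adjusted p = 0.0496) without replicate 1. Eif2a, which can deliver initiator tRNA independently of eIF2, fell without replicate 1, with a log2 fold change of -0.26 (adjusted p = 0.0216), and was at -0.15 (adjusted p = 0.677) with all libraries. Eif5b, which joins the ribosomal subunits, had 205 to 222 CPM against 204 to 247 CPM, and Eif1b, Eif1ad and Eif2d did not pass in either fit. On the opposite strand, Eif5b shares 1643 exonic bases with Rev1 and Eif1ad 428 with Banf1, and the strand setting of the counting is unknown.

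The transcripts of eIF2 itself were lower in simulated microgravity than in normal gravity replicates 2 and 3. Eif2s1 encodes the alpha subunit, the one that stress kinases phosphorylate, and had 129.5, 129 and 126 CPM in simulated microgravity, against 135, 159 and 160.1 CPM in normal gravity. The groups did not overlap. Its log2 fold change was -0.24 ± 0.11 (adjusted p = 0.363) with all libraries and -0.31 ± 0.04 (adjusted p = 0.00371) without replicate 1. Eif2s2, the beta subunit, had 292 to 310.1 CPM against 339 to 392 CPM and was called lower without replicate 1 (log2 fold change -0.17, adjusted p = 0.0277), and was at -0.24 (adjusted p = 0.332) with all libraries. Eif2s3x, the gamma subunit on the X chromosome, had 213, 212 and 206 CPM, against 142, 273 and 259 CPM. Replicate 1 lay below and the other normal gravity libraries above all simulated microgravity libraries, and the log2 fold change was -0.10 ± 0.25 (adjusted p = 0.903) with all libraries and -0.34 ± 0.04 (adjusted p = 0.00318) without it. Of the Eif2s3x transcript's 50-base stretches, 34.6% also occur in another gene, mostly Gm2223, so part of its reads could be counted elsewhere.

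Of the 5 eIF2B subunit genes, Eif2b3, a part of the catalytic core that reloads eIF2 with GTP, was the one with the clearest separation. It had 34.6, 32.0 and 32.6 CPM in simulated microgravity, against 43.6, 43.8 and 42.6 CPM in normal gravity, with all 3 normal gravity libraries within a narrow range. The log2 fold change was -0.39 ± 0.10 (adjusted p = 0.126) with all libraries and -0.38 ± 0.07 (adjusted p = 0.00845) without replicate 1. Eif2b2 was the only one called higher, with 0.01 ± 0.21 (adjusted p = 0.988) with all libraries and 0.27 ± 0.08 (adjusted p = 0.0442) without replicate 1, and it no longer passed with the length trend also removed (0.15, adjusted p = 0.209). Eif2b1, Eif2b4 and Eif2b5 did not pass in either fit, with log2 fold changes between -0.26 and -0.15 without replicate 1, and Eif2b1 was called lower with the length trend also removed (-0.27, adjusted p = 0.0103). In all, 1 of the 8 tested genes of eIF2 and eIF2B rose and 4 fell without replicate 1, where 15.7% and 15.1% of all genes were called, and the median was -0.19 with all libraries.

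The 4 kinases that phosphorylate eIF2 each sense another stress. With all libraries, 3 of the 4 transcripts had a log2 fold change above 0, with a median of 0.21, and 0 were called. Eif2ak2 was the one below 0, and with limma-voom all 4 were above 0. Without replicate 1, 0 of the 4 were called higher and 1 lower, where 15.7% and 15.1% of all genes were called. Eif2ak2, the kinase PKR that is activated by double-stranded RNA, had 56.6, 49.7 and 52.9 CPM in simulated microgravity, against 30.2, 66.6 and 66.3 CPM in normal gravity. The simulated microgravity libraries lay between replicate 1 and the other normal gravity libraries, and the log2 fold change was -0.04 ± 0.30 (adjusted p = 0.974) with all libraries and -0.32 ± 0.07 (adjusted p = 0.0179) without replicate 1. Eif2ak3, the kinase PERK of the endoplasmic reticulum stress response, had 88.4, 90.4 and 86.9 CPM, against 51.3, 83.0 and 86.9 CPM. Replicate 1 was far below the other 5 libraries, and the log2 fold change was 0.26 ± 0.21 (adjusted p = 0.613) with all libraries and 0.06 ± 0.05 (adjusted p = 0.404) without it. Eif2ak4, the amino acid sensor GCN2, had 41.4, 43.9 and 39.4 CPM, against 27.6, 42.2 and 38.2 CPM, and its groups overlapped (adjusted p = 0.641 with all libraries and 0.672 without replicate 1). Eif2ak1, the haem-regulated kinase, had 65.8 to 72.1 CPM against 55.9 to 61.3 CPM. Its groups did not overlap, and it did not pass in either fit (log2 fold change 0.22, adjusted p = 0.379, and 0.19, adjusted p = 0.0632). Eif2ak1 shares 487 exonic bases with Aimp2 on the opposite strand, and the strand setting of the counting is unknown.

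The largest of the factors, eIF3, is a scaffold of many subunits on the small ribosomal subunit, and its transcripts were lower as a group. Summed over the 14 eIF3 genes, the level was 2821, 2872 and 2802 CPM in simulated microgravity, against 3166, 3136 and 3121 CPM in normal gravity. The groups did not overlap, each kept within a narrow range, and the sum in replicate 1 lay with those of the other normal gravity libraries. That sum hides opposite deviations of single genes in replicate 1. Eif3a had 307 CPM there, against 608 and 625 CPM in replicates 2 and 3, and Eif3f had 287 CPM, against 143 and 149 CPM. The means were 2832 ± 36.2 and 3141 ± 23.0 CPM (SD, n = 3 each), a difference of -309 CPM with an exact two-sided permutation p of 0.1, which is the smallest that 3 against 3 libraries can give. Without replicate 1 the difference was -297 CPM. The log2 fold change was below 0 for 13 of the 14 genes with all libraries, with a median of -0.24, Eif3a being the exception. It was below 0 for 12 of the 14 without replicate 1, with a median of -0.16, Eif3f and Eif3k lying above 0. Without replicate 1, 7 of the 14 fell and 0 rose, where 15.1% of all genes were called lower and 15.7% higher, and with the length trend also removed 10 fell, where 17.2% of all genes were called lower.

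Among the subunits, Eif3b, a core subunit, had 344, 351 and 329 CPM in simulated microgravity, against 369, 434 and 414 CPM in normal gravity. The groups did not overlap, and the log2 fold change was -0.25 ± 0.10 (adjusted p = 0.318) with all libraries and -0.31 ± 0.05 (adjusted p = 0.00498) without replicate 1. Eif3m had 78.9, 82.1 and 78.3 CPM, against 112, 92.2 and 89.0 CPM, with the highest value in replicate 1. It was at -0.29 ± 0.13 (adjusted p = 0.328) with all libraries and at -0.18 ± 0.05 (adjusted p = 0.0448) without replicate 1. Eif3j2, a copy of the loosely bound subunit eIF3j, had 59.8, 64.3 and 66.6 CPM, against 75.1, 76.3 and 75.8 CPM. Its groups were well apart, but 91.8% of its 50-base stretches also occur in another gene, mostly Eif3j1, so its reads cannot be told from those of its copy. Eif3j2 was at -0.25 ± 0.10 (adjusted p = 0.301) with all libraries and at -0.26 ± 0.06 (adjusted p = 0.0266) without replicate 1, and Eif3j1 was at -0.15 (adjusted p = 0.769) and -0.31 (adjusted p = 0.0192). Eif3j1 also shares 1107 exonic bases with Spg11 on the opposite strand, and the strand setting of the counting is unknown. Eif3d, Eif3e and Eif3l also fell without replicate 1, by 0.15, 0.15 and 0.17 on the log2 scale. With all libraries Eif3d, Eif3e and Eif3l were at -0.27, -0.24 and -0.14 (adjusted p = 0.369, 0.362 and 0.534).

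The 7 eIF3 genes that did not pass without replicate 1 were Eif3a, Eif3c, Eif3f, Eif3g, Eif3h, Eif3i and Eif3k. Eif3c, another core subunit, was among the steadiest, with 370.2, 382 and 369.7 CPM in simulated microgravity, against 363, 382 and 379.8 CPM in normal gravity. Its log2 fold change was -0.02 ± 0.04 without replicate 1 (adjusted p = 0.675). Eif3f had 151, 157 and 158 CPM, against 287, 143 and 149 CPM, and only replicate 1 stood away from the other 5 libraries. Eif3a, the longest eIF3 subunit protein, showed the reverse, with 579, 559 and 524 CPM against 307, 608 and 625 CPM. Eif3g, Eif3h and Eif3i were called lower once the length trend was removed as well as replicate 1, with log2 fold changes of -0.27, -0.20 and -0.29.

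**Figure D4:**
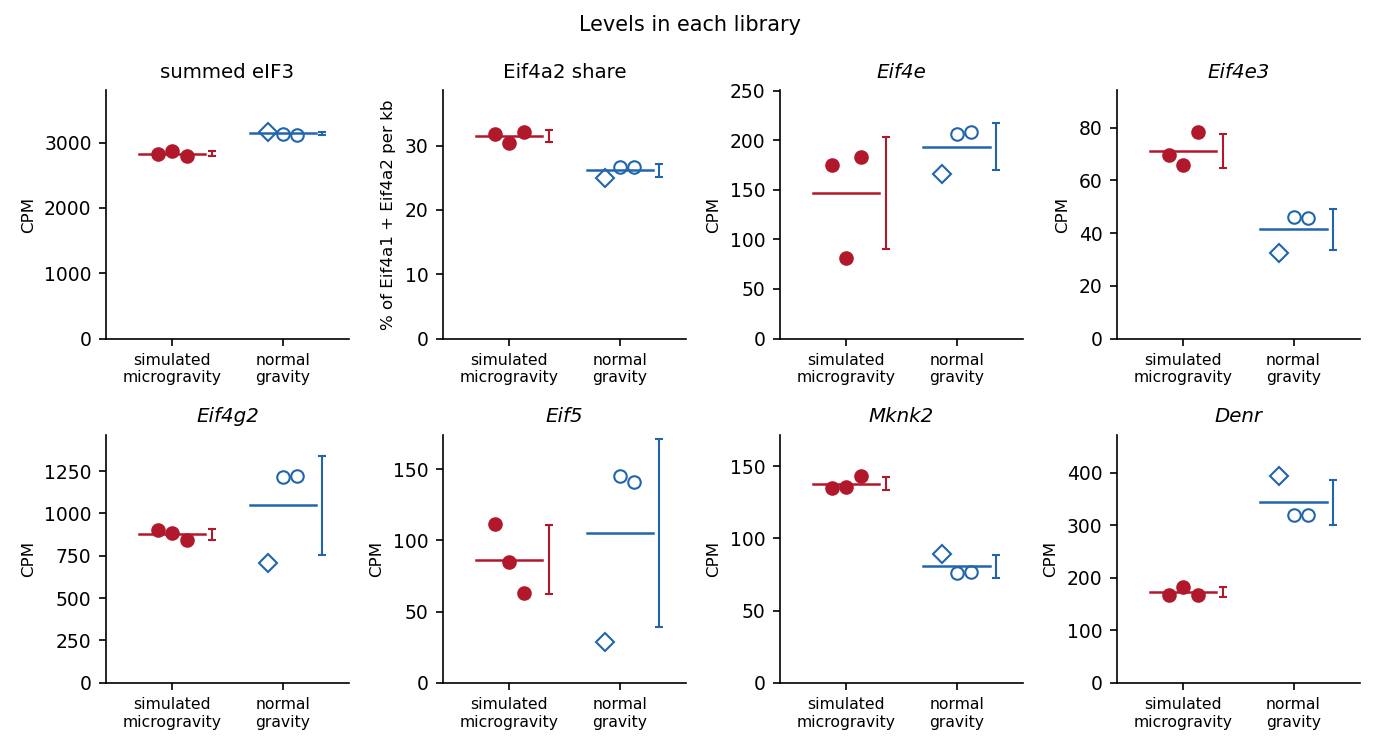
Values in each library, simulated microgravity on the left and normal gravity on the right, of the summed eIF3 level, 6 single genes (CPM) and the share of Eif4a2 in the Eif4a1 and Eif4a2 total (percent), with lines at the group mean, error bars of 1 SD (n = 3 each) beside them and a diamond for normal gravity replicate 1. The groups do not overlap for the eIF3 sum, the Eif4a2 share, Eif4e3, Mknk2 and Denr, whereas for Eif4g2 and Eif5 replicate 1 lies below and replicates 2 and 3 above all simulated microgravity libraries.

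In the cap-binding complex, the scaffold was lower and a rarer cap-binding protein higher in simulated microgravity than in normal gravity replicates 2 and 3. Without replicate 1, 2 of the 11 tested genes of eIF4F and its helpers rose and 5 fell, where 15.7% and 15.1% of all genes were called, and the median log2 fold change with all libraries was -0.08. Eif4e3, an eIF4E relative that binds the cap in another way, had 69.6, 65.7 and 78.4 CPM in simulated microgravity, against 32.4, 46.1 and 45.6 CPM in normal gravity. All simulated microgravity libraries lay well above all normal gravity libraries. Its log2 fold change was 0.78 ± 0.17, with the lowest adjusted p of the family with all libraries (0.0898), and 0.64 ± 0.09 (adjusted p = 0.00370) without replicate 1. With DESeq2 it was 1 of the 2 Eif genes called higher with all libraries, the other being Eif4ebp3. A same-strand gene, Gm20696, shares 373 exonic bases with Eif4e3 and had 262 counts in all, against 10953 for Eif4e3.

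The main cap-binding protein, Eif4e, had 175, 81.6 and 184 CPM in simulated microgravity, against 166, 206 and 209 CPM in normal gravity. Simulated microgravity replicate 2 lay far below the other 5 libraries. Eif4e was at -0.40 ± 0.31 on the log2 scale (adjusted p = 0.606) with all libraries and at -0.50 ± 0.32 (adjusted p = 0.300) without normal gravity replicate 1, and it was -0.11 without simulated microgravity replicate 2. Eif4e2, a cap-binding protein linked to translational repression, had 90.8 to 110.5 CPM against 90.6 to 109 CPM.

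Eif4g1, the main scaffold of eIF4F, had 481, 501 and 462 CPM in simulated microgravity, against 287, 631 and 609 CPM in normal gravity. Eif4g2, a scaffold relative without the eIF4E-binding site that serves cap-independent starts, had 902, 886 and 840.1 CPM, against 707, 1214 and 1220.3 CPM. For both genes the simulated microgravity libraries lay together, replicate 1 below them and the other normal gravity libraries above. The log2 fold change of Eif4g1 was -0.08 ± 0.29 (adjusted p = 0.934) with all libraries and -0.36 ± 0.05 (adjusted p = 0.00317) without replicate 1. That of Eif4g2 was -0.26 ± 0.22 (adjusted p = 0.640) with all libraries and -0.47 ± 0.04 without replicate 1, with the lowest adjusted p of the family in that fit (0.000909). Eif4g3, the third scaffold, had 141, 136 and 140.3 CPM, against 94.6, 157 and 142 CPM, and did not pass in either fit (log2 fold change 0.08, adjusted p = 0.889, and -0.10, adjusted p = 0.236).

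The helicase genes moved in opposite directions without replicate 1. Eif4a1, the major eIF4A, had 733, 752 and 707 CPM in simulated microgravity, against 763, 803 and 842 CPM in normal gravity. Eif4a2, the paralog that has been tied to microRNA-mediated repression, had 293, 281 and 286 CPM, against 217, 250.4 and 262 CPM. Neither pair of groups overlapped. Without replicate 1 the log2 fold change was -0.17 ± 0.04 for Eif4a1 (adjusted p = 0.0292) and 0.16 ± 0.04 for Eif4a2 (adjusted p = 0.0294), and with all libraries it was -0.14 (adjusted p = 0.562) and 0.24 (adjusted p = 0.365). Counted per kilobase, Eif4a2 made up 31.8%, 30.4% and 32.1% of the Eif4a1 and Eif4a2 total in simulated microgravity, against 24.96%, 26.7% and 26.7% in normal gravity. That share does not depend on the scaling between libraries, and its means of 31.5% ± 0.918 and 26.1% ± 1.02 (SD, n = 3 each) differed by 5.32 percentage points (exact two-sided permutation p = 0.1, the smallest possible). Eif4a2 did not pass once the length trend was removed as well as replicate 1 (0.07, adjusted p = 0.206), while Eif4a1 did (-0.23, adjusted p = 0.00878). Of the 50-base stretches of Eif4a1, 28.4% occur in another gene, mostly the pseudogene Eif4a-ps4, which held 5143 to 5950 counts in simulated microgravity and 5851 to 6309 in normal gravity, and Eif4a2 shares 194 exonic bases with Rfc4 on the opposite strand.

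Eif4h, a partner that stimulates the helicase, had 241, 242 and 250.2 CPM in simulated microgravity, against 302, 298 and 285 CPM in normal gravity. Replicate 1 lay with the other normal gravity libraries and the groups were apart. Its log2 fold change was -0.27 ± 0.09 (adjusted p = 0.213) with all libraries and -0.25 ± 0.04 (adjusted p = 0.00674) without replicate 1. Eif4b, the second helicase partner, had 460.3 to 469 CPM against 436 to 506 CPM and was called lower without replicate 1 (log2 fold change -0.12, adjusted p = 0.0413), and was at -0.05 (adjusted p = 0.865) with all libraries. Eif4a3, which belongs to the exon junction complex rather than to initiation, had 155 to 163 CPM against 173 to 216 CPM. It did not pass with all libraries or without replicate 1 and was called lower with the length trend also removed (-0.25, adjusted p = 0.00606).

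Promoter sequence was looked at as a description only, and RefSeq promoters of GRCm38.p6 (250 bases before to 50 after each start) were given for 43 of the 55 genes. The motif CACGTG, the E-box bound by Myc and related factors, reads the same on both strands and was in the promoters of 10 of the 43 genes (23.3%), against 8.09% of 27025 genes with a promoter. Those 27025 were taken whether or not they had counts. The 10 were Eif1b, Eif3a, Eif3f, Eif3k, Eif4a1, Eif4e, Eif4g1, Eif4h, Eif5a and Eif5a2. The windows of the 4 cap-complex genes are shown because they include all 3 parts of eIF4F, of which Eif4g1 and Eif4a1 fell without replicate 1 and Eif4e did not pass. The motif is in capitals and each window is on the gene's own strand. Both Eif4e windows and that of Eif4g1 lie inside the gene bounds of the count table, which begin at an earlier start.
Eif4e, chr3:138527028-138527057, plus strand, 228 bases before the start: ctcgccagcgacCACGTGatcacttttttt
Eif4e, chr3:138527192-138527221, plus strand, 64 bases before the start: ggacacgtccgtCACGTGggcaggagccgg
Eif4g1, chr16:20672661-20672690, plus strand, 54 bases before the start: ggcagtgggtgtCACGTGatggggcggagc
Eif4a1, chr11:69672595-69672624, minus strand, 189 bases before the start: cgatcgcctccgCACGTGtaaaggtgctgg
Eif4h, chr5:134639488-134639517, minus strand, 96 bases before the start: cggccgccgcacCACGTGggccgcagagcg
The 9 tested genes with the motif had a median log2 fold change of -0.21 with all libraries and -0.15 without replicate 1, when 3 were called lower and 0 higher. The 32 tested genes with a promoter and no motif were at -0.13 and -0.15, with 14 lower and 3 higher. Over all genes, 15.1% were called lower and 15.7% higher in that fit. The medians of genes with and without the motif were alike without replicate 1 and less so with all libraries. A difference between them was not tested, and a match is a description of these letters only. The motif TGATGNAAN, to which ATF4 and its partners bind, was searched on both strands and found in 1 of the 43 genes, Eif2s3x, against 4.50% of all genes.

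Many mRNAs of the translation machinery start with a C followed by a run of pyrimidines, the feature through which TOR signalling controls their translation. A start with a C and at least 4 pyrimidines after it was annotated for 2 of the 43 genes (4.65%), against 3.01% of all genes with a promoter. Both are shown, 30 bases around the RefSeq start, with the run from the start in capitals.
Eif2s3x, chrX:94212627-94212656, minus strand: ttttcCTTTTCTCTCCgagcaagatggctg
Eif3f, chr7:108934410-108934439, plus strand: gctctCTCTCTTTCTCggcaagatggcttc
Each run is 11 bases long. Eif2s3x was lower than normal gravity replicates 2 and 3 and Eif3f was not, as given above.

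The 4E-binding proteins are the brake on eIF4E, and without normal gravity replicate 1, 2 of the 4 genes in this group rose and 1 fell, where 15.7% and 15.1% of all genes were called. Eif4ebp1 had 41.0, 39.1 and 41.7 CPM in simulated microgravity, against 76.1, 33.1 and 29.6 CPM in normal gravity. The simulated microgravity libraries were all above replicates 2 and 3 and all below replicate 1. Eif4ebp1 was at -0.19 ± 0.36 (adjusted p = 0.857) on the log2 scale with all libraries and rose by 0.37 ± 0.08 (adjusted p = 0.0146) without replicate 1. Eif4ebp2, the second such gene, had 105, 113 and 102 CPM, against 98.8, 132 and 127 CPM. It was at -0.16 ± 0.14 (adjusted p = 0.649) with all libraries and fell by 0.28 ± 0.06 on the log2 scale (adjusted p = 0.0178) without replicate 1. Per kilobase, Eif4ebp2 made up 46.9%, 49.97% and 45.7% of the Eif4ebp1 and Eif4ebp2 total in simulated microgravity, against 31.0%, 57.9% and 59.8% in normal gravity. With all libraries that share differed by -2.02 percentage points (exact two-sided permutation p = 1), and without replicate 1 by -11.3.

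Eif4ebp3 was close to the detection limit, with 20, 60 and 16 counts in simulated microgravity, against 6, 5 and 4 counts in normal gravity. Simulated microgravity replicate 2 held most of its counts, and without that library the log2 fold change was 1.80 (adjusted p = 0.320). Its log2 fold change was 2.70 ± 0.69 (adjusted p = 0.125) with all libraries and 2.87 ± 0.85 (adjusted p = 0.0487) without replicate 1, and it did not pass with the length trend also removed (adjusted p = 0.0534). Of its 50-base stretches, 65.5% also occur in another gene, mostly AC115631.1, which overlaps it on the same strand, so its level is uncertain. Eif4enif1, which carries eIF4E into the nucleus, had 61.1 to 65.3 CPM against 48.5 to 77.8 CPM. It did not pass in either fit and was called lower with the length trend removed as well as replicate 1 (-0.25, adjusted p = 0.0453).

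Eif5a and Eif6 were the tested genes of the last role group. Eif5a, which eases peptide bonds at stalling sequences and is activated by the hypusine modification, had 763, 873 and 855 CPM in simulated microgravity, against 1582, 907 and 845 CPM in normal gravity. Replicate 1 stood far above the other 5 libraries, which overlapped. Eif5a was at -0.42 ± 0.25 on the log2 scale (adjusted p = 0.494) with all libraries and at -0.07 ± 0.07 (adjusted p = 0.453) without replicate 1. Eif6, which keeps the ribosomal subunits apart, had 146, 148 and 159 CPM, against 240.3, 148 and 153 CPM, and was at -0.26 ± 0.21 (adjusted p = 0.613) and 0.01 ± 0.05 (adjusted p = 0.943). Neither gene was called with all 6 libraries or without replicate 1.

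Around the Eif genes, 75 further genes of translation control were listed, of which 73 were tested. With all 6 libraries 1 passed as higher and 1 as lower, and without normal gravity replicate 1, 12 passed as higher and 20 as lower, where 15.7% and 15.1% of all genes did (1.16% and 0.365% with all libraries). In the list of cap-binding control (TOR, its regulators, S6 kinases and partners of eIF4F), 1 of 24 rose with all libraries, and 5 rose and 6 fell without replicate 1. That gene was Mknk2, a kinase that phosphorylates eIF4E while bound to eIF4G, with 135, 135 and 143 CPM in simulated microgravity, against 89.5, 75.6 and 76.5 CPM in normal gravity. Its groups were far apart, with a log2 fold change of 0.77 ± 0.11 (adjusted p = 0.0357) with all libraries and 0.86 ± 0.05 (adjusted p = 0.000267) without replicate 1. Pabpc1, the poly(A)-binding protein that joins the mRNA tail to eIF4G, had 809.5, 831 and 803 CPM, against 751, 1031 and 998 CPM, and was at -0.19 ± 0.14 (adjusted p = 0.60) with all libraries and at -0.31 ± 0.03 (adjusted p = 0.00198) without replicate 1. Mtor had 64.6, 67.6 and 61.6 CPM, against 30.9, 73.4 and 74.3 CPM, and did not pass in either fit (adjusted p = 0.910 and 0.0603).

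In the list of eIF2 control and reinitiation, 1 of 20 fell with all libraries, where 0.365% of all genes were called lower. Without replicate 1, 7 rose and 3 fell, where 15.7% and 15.1% of all genes were called. The gene that fell with all libraries was Denr, which with Mcts1 frees used tRNA from the small subunit so that ribosomes can start again after short upstream reading frames. Denr had 167, 183 and 166 CPM in simulated microgravity, against 393, 318 and 320.1 CPM in normal gravity. Its groups were far apart, with a log2 fold change of -1.0 ± 0.12 (adjusted p = 0.0209) with all libraries and -0.89 ± 0.05 (adjusted p = 0.000284) without replicate 1. Mcts1 had 20.8 to 23.0 CPM against 21.4 to 25.9 CPM. The calls of Mknk2 and Denr were each lost when any library other than normal gravity replicate 1 was left out, with the same direction and log2 fold changes of 0.73 to 0.79 and -1.05 to -0.98.

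Of the transcripts that follow eIF2 phosphorylation, Atf4, Ddit3 and Trib3 are given here, and other listed ones, such as Asns, are not. The log2 fold changes of Atf4, Ddit3 and Trib3 were below 0 with all libraries and above 0 without normal gravity replicate 1. Atf4, the transcription factor whose translation rises when eIF2 is phosphorylated, had 254, 447 and 443 CPM in simulated microgravity, against 739, 405 and 217 CPM in normal gravity. Both groups spread widely and overlapped (adjusted p = 0.848 with all libraries and 0.554 without replicate 1). Its target Ddit3, which encodes CHOP, had 21.4, 21.6 and 21.7 CPM, against 48.4, 16.3 and 15.4 CPM. Its target Trib3 had 39.9, 43.6 and 46.0 CPM, against 86.3, 23.3 and 20.8 CPM. For both targets replicate 1 was the highest of all 6 libraries and replicates 2 and 3 the lowest. Without replicate 1 the log2 fold change was 0.45 ± 0.08 for Ddit3 (adjusted p = 0.00862) and 0.97 ± 0.09 for Trib3 (adjusted p = 0.00132), and with all libraries it was -0.31 (adjusted p = 0.806) and -0.01 (adjusted p = 0.996).

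Among 19 tested genes of elongation and termination, 0 passed with all libraries, where 1.16% of all genes were called higher and 0.365% lower. Without replicate 1, 0 rose and 9 fell, where 15.7% and 15.1% of all genes were called. Eef1a1, which delivers tRNA to the ribosome and was far more abundant in CPM than any Eif gene, had 4909, 5035 and 5013 CPM in simulated microgravity, against 5694, 5203 and 5107 CPM in normal gravity, and did not pass in either fit (adjusted p = 0.692 and 0.280). Eef1a1 was called lower with the length trend removed as well as replicate 1 (-0.17, adjusted p = 0.00574). Eef2, the translocase, had 1787, 1842 and 1810.2 CPM, against 1896, 2029 and 1991 CPM, and was at -0.12 ± 0.09 (adjusted p = 0.589) with all libraries and at -0.15 ± 0.03 (adjusted p = 0.0158) without replicate 1. Eef1g, a subunit of the eEF1A exchange factor, had 478, 509 and 508 CPM, against 819.7, 609 and 601 CPM, with a log2 fold change of -0.44 ± 0.15 (adjusted p = 0.217) with all libraries and -0.28 ± 0.04 (adjusted p = 0.00493) without replicate 1. Dph6, an enzyme of the diphthamide modification of eEF2, had 28.3, 28.5 and 27.5 CPM, against 25.2, 44.3 and 38.8 CPM, and was at -0.36 ± 0.21 (adjusted p = 0.483) with all libraries and at -0.56 ± 0.08 (adjusted p = 0.00429) without replicate 1. Of the 10 mitochondrial factors, 2 fell without replicate 1, the elongation factors Tsfm and Gfm1, by 0.30 and 0.41 on the log2 scale (adjusted p = 0.00805 and 0.00435), and with all libraries they were at -0.44 and -0.19 (adjusted p = 0.205 and 0.749).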

How the data were processed

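RNA from 6 libraries of NCTC 1469 cells was sequenced after an mRNA library kit, per the labels' protocols. Of the tools used on the reads, fastp 2.0 and HISAT2 2.1.0 are named in the submitters' processing notes. For the counting tool, its strand setting, the build and the annotation, nothing is given in the sources used here. Whole-number read counts per gene, not normalized, were what the authors deposited, with gene lengths and coordinates. Start and end equalled those of the GENCODE annotation of GRCm38 for 51 of the 55 Eif genes and for 97.1% of all genes shared with it. The table has 53801 lines, of which 1 names no gene and was left out. Its columns are named C and R with a number. C was read as control and R as random positioning machine, which no label states. If that reading were wrong, every direction would turn round.

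Counts were tested with edgeR 4.0.16 (filterByExpr, TMM, glmQLFit and glmQLFTest, two-sided, Benjamini-Hochberg over all genes tested, threshold 0.05) in R 4.3.3. DESeq2 1.42.0, limma-voom 3.58.1, other scalings, no filter, a replicate block, a gene-length trend removed as an offset and each library left out were alternatives. The scripts were tested on simulated data. CPM of Eif and translation genes are TMM-scaled, those of markers are scaled to library totals. Shared sequence was the share of a gene's 50-base stretches found in another annotated gene. Shares and the eIF3 sum were tested by exact permutation over libraries.

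The Eif genes, the gene and marker lists and the tests were chosen with earlier results of these data known. Values in every library were given for the 8 Eif genes of lowest p with all libraries, the 8 of lowest p without normal gravity replicate 1, a list of core factors, and, of each translation list, those called (at most 6) and the 2 of lowest p without replicate 1. Other genes, such as Eif1, Eif3a, Eif3c, Eif3f and Eif5, were named after their values were seen. Gcn1 was looked up as Gcn1l1, the table's symbol, and Eif1a was added to the scanning group after the table was seen. The labels do not say that same-numbered libraries pair, so the numbers were not taken as pairs. Same-numbered libraries did not deviate together (correlations of -0.07, 0.02 and -0.09), which with so few libraries cannot exclude pairing.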

Additional observations from a re-analysis of the deposited data

How the results depend on the processing

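The main limit is 1 library: leaving out each library in turn gave 3 to 4559 called genes in all, 0 to 6 Eif genes called higher and 0 to 21 lower, against 221, 0 and 0 with all 6, and the upper ends are those without normal gravity replicate 1. The cause was not tested. The added settings without that library, chosen after seeing the data, raised the ranges to 5152 genes (4612, 4775 and 4582 in the other 3), 3 to 7 Eif genes higher and 21 to 28 lower. Counts of all genes called were 125 with no filter, 1230 with DESeq2, 0 with the replicate block and 723 with the length trend removed. DESeq2 called 2 Eif genes higher and 3 lower, and removing the length trend 2 lower. Of the listed translation genes, called higher and lower were 0 and 1 with no filter, 3 and 2 with DESeq2, 0 and 0 with the replicate block, 2 and 3 with the length trend removed, and 0 to 12 and 0 to 20 when a library was left out, against 1 and 1, and the added settings gave 8, 10 and 12 higher and 20, 22 and 24 lower. The replicate block treats same-numbered libraries as pairs, which the labels do not state. It called 0 Eif genes and ended the calls of Mknk2 (adjusted p = 0.248) and Denr (adjusted p = 0.222). With no filter the call of Mknk2 also ended (adjusted p = 0.0554). The Eif median of -0.17 was -0.21 with library size alone, -0.14 with limma-voom, -0.14 with the block, -0.21 with the length trend removed and -0.17 to -0.13 when a library was left out, and -0.21 in 2 of the added settings, with library size alone and with the length trend removed. The eIF3 sum differed by -390 CPM with library size alone, against -309.

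Of 612 values of 36 named genes under the alternatives, 433 kept direction and side of the threshold, 117 passed only there, 13 passed only with all libraries, and 49 changed sign. Each fit without normal gravity replicate 1 gave 21 or 22 of the 117 and 5 or 7 of the 49. Those fits share their libraries, and some of the 36 genes were chosen for a low p without that library. The tally therefore does not measure how well the results hold. With limma-voom and the block, log2 fold changes turned to 0.0052 and 0.0015 for Eif4g1, 0.051 and 0.045 for Eif2ak2, and 0.31 and 0.34 for Trib3. With the length trend removed, Eif4g3 was at -0.039 and Trib3 at 0.043. When a library was left out, the log2 fold change ran from -0.36 to 0.10 for Eif4g1, -0.34 to 0.068 for Eif2s3x, -0.32 to 0.14 for Eif2ak2, -0.43 to 0.37 for Eif4ebp1, -0.10 to 0.23 for Eif4g3, -0.39 to 0.0064 for Eif6, -0.35 to 0.97 for Trib3, -0.59 to 0.29 for Atf4, -0.59 to 0.45 for Ddit3 and -0.19 to 0.31 for Mtor. The added settings without normal gravity replicate 1 (length trend removed, library size alone, DESeq2's size factors and DESeq2, in that order where 4 are given) reached 0.25, 0.31, 0.37 and 0.37 for Eif4ebp1, 0.85, 0.91, 0.97 and 0.97 for Trib3, 0.17, 0.23, 0.29 and 0.29 for Atf4, 0.34, 0.38, 0.44 and 0.44 for Ddit3, -0.041, -0.25, -0.19 and -0.19 for Mtor. Library size alone gave -0.16 for Eif4g3 and -0.011 for Eif2ak4, and both DESeq2 settings gave -0.11 for Eif4g3 and 0.0017 and 0.0018 for Eif6.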
